A study of Mus musculus with 4 samples.

Results

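The genes that encode the subunits of the GABA, glycine and glutamate receptors were taken by symbol from the authors' comparison of mouse neural stem cells that carried an shRNA against Foxp1 with cells that carried a scrambled shRNA. All 52 symbols of these families were found among the 26815 entries of the table, each once, and 25 of them had been tested by the authors. The cells came from the cortex of CD-1 embryos at E14.5 and had been kept in monolayer culture in EGF and bFGF, the growth factors that let such cells divide, and all cultures had been transduced with a lentivirus and expanded in puromycin at 0.5 µg/mL. One group of 2 libraries carried the scrambled hairpin SHC002 and the other group of 2 libraries the Foxp1 hairpin pLKO.1_sh_ex15, with different passages as biological duplicates, so each group rests on 1 hairpin and the labels name no separate animals. The p-values can therefore speak only for the spread between these cultures. The authors deposited 1 comparison per gene between conditions coded q1 and q2, no header or label says which code is which hairpin, and every direction is given as q2 relative to q1. No value per library or per condition was used, so neither expression levels nor a spread between replicates can be given, and read depth is unknown. In these bulk cultures, fewer cells of a type and less RNA per cell cannot be told apart.

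GABA-A and glycine receptors are pentameric chloride channels, and in most mature neurons their opening inhibits the cell. GABA-B receptors are pairs of G-protein-coupled subunits, which need each other to signal. The AMPA, kainate and NMDA receptors are glutamate-gated cation channels made of several subunits, the delta receptors are related proteins that bind synaptic organisers, and the metabotropic glutamate receptors signal through G proteins. Neural progenitors also carry some of these receptors, and ambient GABA and glutamate are known to influence their division. Astrocytes and oligodendrocyte precursors express several of them as well.

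For Foxp1, the forkhead transcription factor that the hairpin targets, the authors' deposited table gave a 4.09-fold lower value in q2, a log2 fold change of -2.03 with a Cuffdiff q of 0.00162. All q-values below are Cuffdiff's unless a setting is named. Of the 25 tested receptor genes, 10 had a q under 0.05, the threshold used here for a call. Of these 2 were higher in q2 and 8 lower, and 15 genes were not called. Among all 15315 tested entries 7.63% were called, 4.24% higher and 3.39% lower. In the authors' deposited table the log2 fold changes of the 25 receptor genes had a median of -0.49 and those of the 15197 tested entries with a finite value a median of -0.05, and the median absolute log2 fold change was 0.60 and 0.32. The 25 genes are those that passed the authors' own minimum, so these values describe that subset only. GABA receptor genes lay below 0 in 7 of 8 tested, with a median of -1.32, and the 16 tested glutamate receptor genes in 10, with a median of -0.17, beside 54.3% of all tested entries with a finite value below 0. All 5 called GABA receptor genes were lower in q2, among them Gabra4, Gabrg1, Gabbr1 and Gabbr2. Of the glutamate receptor genes Gria1 and Grik3 were called higher and 3 lower, Grik2 and Grik4 among them. Where p-values were recomputed from a normal distribution of the deposited statistic, which the authors' p-values do not follow, 5 genes lost their calls, Gabbr2, Gabrg1, Grik2 and Grik4 among them, which left 2 higher and 3 lower beside 1.67% and 1.32% of all entries (2.98% in either direction).

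**Figure D1:**
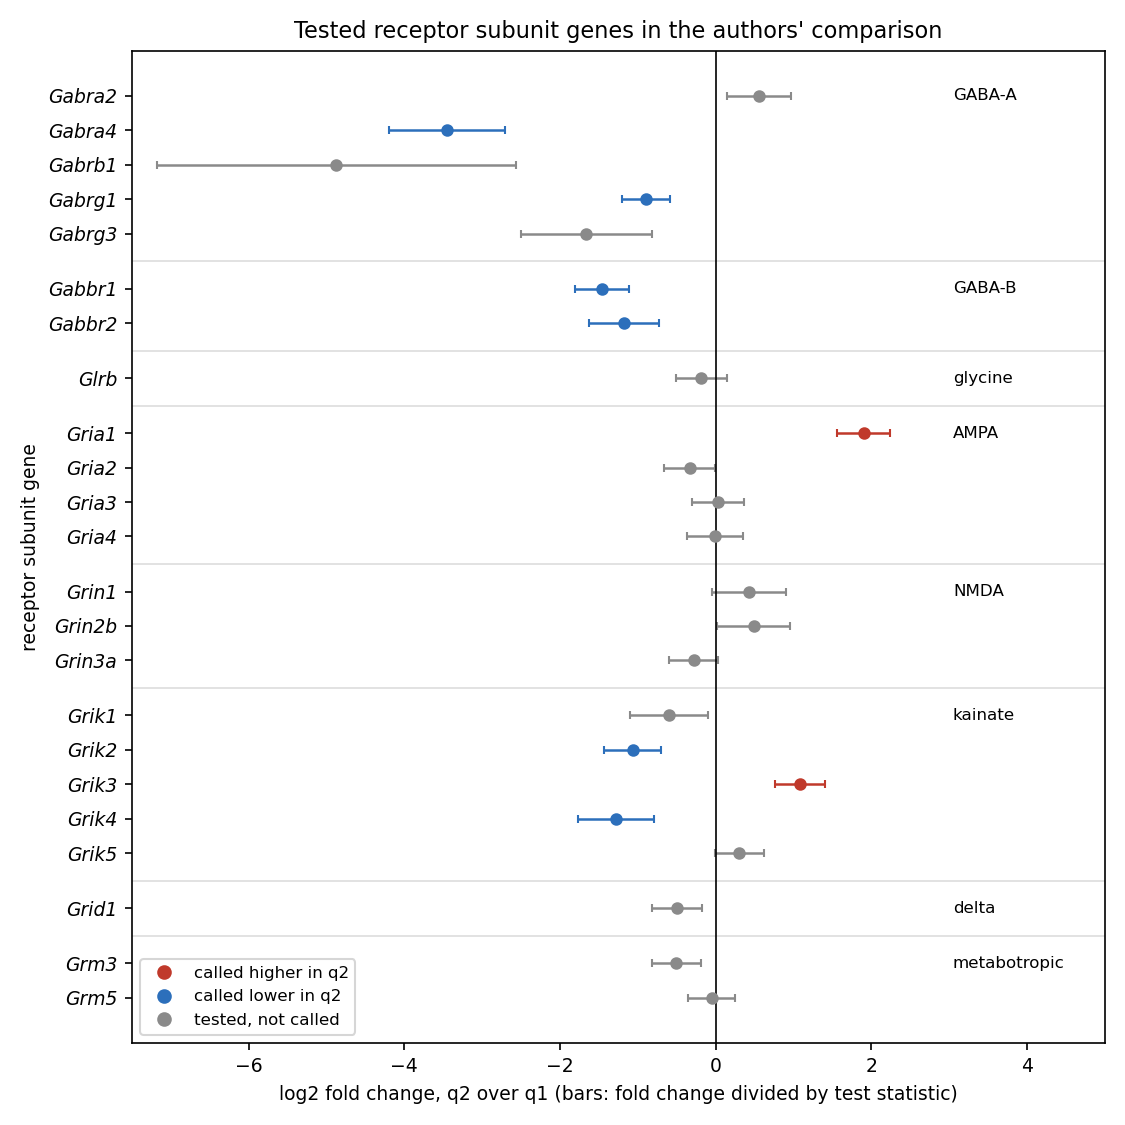
The x axis gives the log2 fold change (q2 over q1) from the authors' deposited table for 23 of the 25 tested receptor subunit genes (y axis, grouped by family). Red points were called higher, blue points lower and grey points not at all; bars reach 1 implied error, the fold change divided by the test statistic, to each side, and the bar of Gabrb1 is the widest at 2.31.

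Upstream sequences are shown for 4 GABA receptor genes, chosen because they differ in their content of CpG dinucleotides. Gabra4, Gabrb1 and Gabrg1 belong to the chromosome 5 gene cluster, and Gabbr1 is a GABA-B subunit. All 4 had negative fold changes. Gabra2, which lies between Gabrg1 and Gabra4 and had a log2 fold change of 0.56, is not shown. Its window held 18 CpG in the 250 upstream bases, UTR bases included. The sequences shown were taken from RefSeq windows on GRCm38.p6 that end at the base before an annotated transcript start, with bases annotated as UTR left out. Each is written 5′ to 3′ on the gene's strand, with CpG dinucleotides in capitals.

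Gabra4, chr5:71658364-71658558, minus strand: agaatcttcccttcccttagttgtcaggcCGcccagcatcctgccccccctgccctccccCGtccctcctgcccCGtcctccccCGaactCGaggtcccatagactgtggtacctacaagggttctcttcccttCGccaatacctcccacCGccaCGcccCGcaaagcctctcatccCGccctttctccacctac

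Gabrb1, chr5:71699682-71699931, plus strand: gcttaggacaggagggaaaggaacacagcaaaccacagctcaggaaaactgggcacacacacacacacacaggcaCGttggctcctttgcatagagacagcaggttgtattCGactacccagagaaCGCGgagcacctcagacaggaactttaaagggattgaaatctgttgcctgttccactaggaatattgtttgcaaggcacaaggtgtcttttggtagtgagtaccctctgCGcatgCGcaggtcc

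Gabrg1, chr5:70842618-70842867, minus strand: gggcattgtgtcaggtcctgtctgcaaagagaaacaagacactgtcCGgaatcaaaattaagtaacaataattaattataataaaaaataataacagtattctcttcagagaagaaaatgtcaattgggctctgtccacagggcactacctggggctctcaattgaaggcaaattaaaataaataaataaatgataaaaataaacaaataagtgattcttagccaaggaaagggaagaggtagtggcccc

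Gabbr1, chr17:37045716-37045965, plus strand: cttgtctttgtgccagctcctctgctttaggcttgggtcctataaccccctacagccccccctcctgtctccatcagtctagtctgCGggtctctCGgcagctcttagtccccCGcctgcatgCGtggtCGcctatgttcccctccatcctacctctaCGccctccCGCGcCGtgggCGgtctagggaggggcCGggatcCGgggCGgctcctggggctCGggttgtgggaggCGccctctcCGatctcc

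The Gabbr1 stretch held 16 CpG in 250 bases, the Gabra4 stretch 10 in 195 bases and the Gabrb1 stretch 6 in 250 bases. The Gabrg1 stretch held 1 CpG in 250 bases and had a GC content of 35.6%. Over all 32851 RefSeq windows the median was 6 CpG in the 250 upstream bases, and over the 17 windows of tested receptor genes it was 18. These medians include UTR bases, and counted in that way the Gabra4 window held 12 CpG. RefSeq lists 2 starts for Gabrb1. The one farther upstream lies 387 bases inside Gabra4, which is read from the opposite strand, and the other, shown above, lies 41624 bases beyond the Gabra4 start. The window of the Gabrb1 start inside Gabra4, not shown, held 18 CpG in its 250 upstream bases, UTR bases included. Windows were found for 36 of the 52 genes, 7 of them called. The forkhead core TGTTTAC, searched on both strands, was in 3.17% of all windows and in 1 of the 43 windows of receptor genes, that of the untested Gabrr1, so in 0 of the 7 windows of called genes. The related TATTTAC, which shares no match with it, was in 2.73% of all windows and in 0 of the 43. A missing match says only that these letters are not in these windows.

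The largest fold changes of the receptor genes lay in the GABA-A family, where 6 of 19 genes were tested, 3 were called lower, none higher and 3 were not called. Gabra4, which encodes an alpha subunit found mainly in receptors outside synapses (chromosome 5, 71569734 to 71658308), was 10.9-fold lower in q2 by the authors' deposited table. Its log2 fold change of -3.45 stood beside a q of 0.00292 in the authors' deposited table and an implied error of 0.75, which is the size of the log2 fold change divided by that of the test statistic. It stayed called under all 11 alternative settings, with no log2 fold change above -3.20. These settings include a q under 0.1, which could end no call. Gabrg1, a gamma subunit (chromosome 5, 70751047 to 70842617), was 1.86-fold lower by the authors' deposited table, with a log2 fold change of -0.89, an implied error of 0.31 and q = 0.00162. Gabrg1 transcripts have a median GC content of 34.7%, against 50.7% over tested entries with a known value. Once the trend of fold change with transcript GC content was removed, Gabrg1 went to -0.52 and its call ended (Benjamini-Hochberg adjusted p of 0.188, from the relation of Cuffdiff's p to its statistic), whereas Gabra4 kept its call at -3.20.

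The other tested GABA-A genes were Gabrb1, Gabrg3 and Gabra2. For Gabrb1, a beta subunit, the authors' deposited table gave the lowest log2 fold change of any tested receptor gene, -4.87, but with an implied error of 2.31 and no call (q = 0.581). Its statistic of -2.11 had a p of 0.248 in the authors' deposited table, while Gabrg3, a gamma subunit, had a statistic of -1.97 and a p of 0.0134. Gabrg3 itself was not called, with a log2 fold change of -1.66 in the authors' deposited table (q = 0.117). Gabra2, an alpha subunit that sits between Gabrg1 and Gabra4 in the genome, had a log2 fold change of 0.56 in the authors' deposited table (q = 0.269), the only positive value among the tested GABA receptor genes. Gabra2 stood at 0.93 and was called higher with the GC trend removed (Benjamini-Hochberg adjusted p of 0.0342, from the same Cuffdiff relation).

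GABA-A subunit genes lie in clusters, and the chromosome 5 and chromosome 7 clusters gave all 6 tested members. On chromosome 5 the 4 genes Gabrg1, Gabra2, Gabra4 and Gabrb1 span 1.39 Mb, with 2 called lower. Gabra4 and Gabrb1, which are read away from each other, had the lowest values, and Gabra2, which lies beyond Gabra4, had the opposite sign. In the chromosome 7 cluster, the authors' deposited table gave Gabrg3 and Gabra5 negative values, log2 fold changes of -1.66 and -1.59, with Gabrg3 not called and Gabra5 not tested. The chromosome 11 cluster, which holds Gabra6 and Gabrb2, had no tested member. Gabre, Gabra3 and Gabrq on chromosome X were not tested either.

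**Figure D2:**
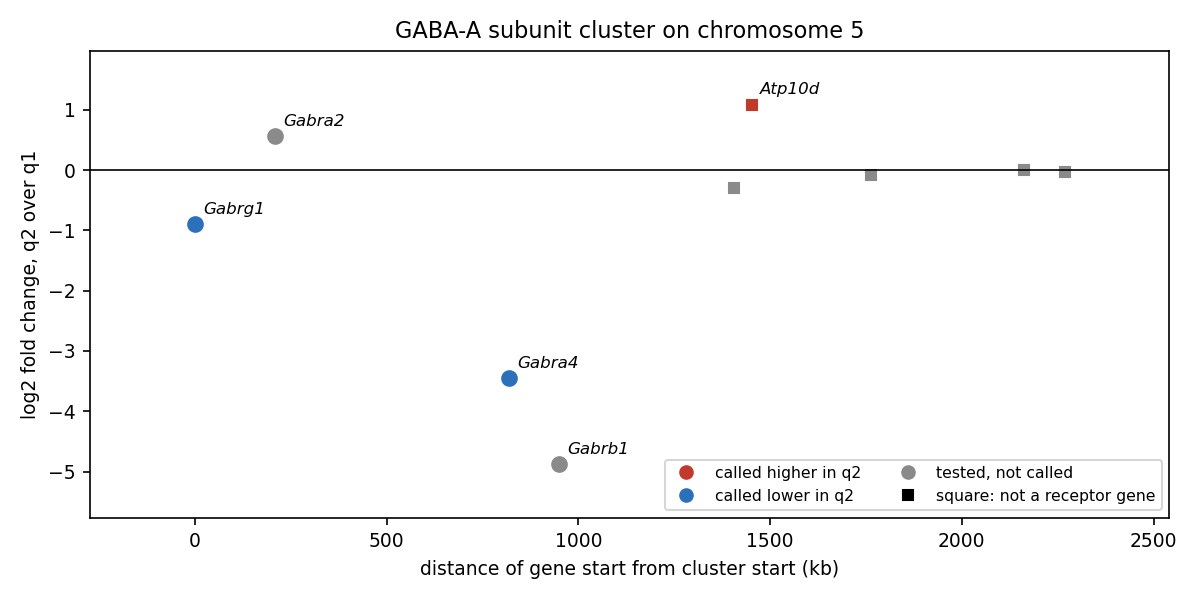
The y axis gives the log2 fold change (q2 over q1) from the authors' deposited table against the distance of a gene's start from the start of the cluster in kb (x axis), for the GABA-A cluster on chromosome 5 and entries within 1 Mb of it. Circles are receptor genes and squares other tested genes, coloured by call; Gabra4 and Gabrb1 lie at -3.45 and -4.87, and Gabra2 above 0.

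Both GABA-B subunit genes were called lower in q2. Gabbr1, which encodes the subunit that binds GABA (chromosome 17, 37045966 to 37074377), was 2.75-fold lower by the authors' deposited table, with a log2 fold change of -1.46, an implied error of 0.35 and q = 0.00162. It stayed called under all 11 alternatives. Gabbr2, the subunit that couples to G proteins (chromosome 4, 46663898 to 46991714), was 2.26-fold lower by the authors' deposited table, with a log2 fold change of -1.18, an implied error of 0.45 and q = 0.0149. With the GC trend removed, both had lower values, -1.51 for Gabbr1 and -1.30 for Gabbr2. Of the 5 glycine receptor genes 1 was tested, Glrb, the beta subunit that anchors the receptor to gephyrin, and it was not called, with a log2 fold change of -0.18 in the authors' deposited table (q = 0.737). That value changed sign, to 0.09, with the GC trend removed.

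Among the AMPA receptor genes all 4 were tested, 1 was called higher and 3 were not called. Gria1, which encodes a subunit whose trafficking is central to synaptic plasticity (chromosome 11, 57011618 to 57330244), was 3.74-fold higher in q2 by the authors' deposited table, with a log2 fold change of 1.90, an implied error of 0.34 and q = 0.00162. Its statistic of 5.56 was the largest in size among the receptor genes in the authors' deposited table, and Gria1 stayed called under all 11 alternatives, with no value below 1.90. Gria2, the subunit that makes AMPA receptors nearly impermeable to calcium, had a log2 fold change of -0.33 in the authors' deposited table (q = 0.456). Gria3 and Gria4 stood at 0.03 and 0.00 in the authors' deposited table (q = 0.964 and 0.994), and the sign of Gria4 turned with centring and with removal of the GC or length trend. Whether Gria1 differed from Gria2 in its change was not tested.

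Kainate receptor genes moved in opposite directions, with 1 of 5 called higher and 2 lower. Grik3, a low-affinity kainate subunit (chromosome 4, 125490831 to 125714173), was 2.12-fold higher in q2 by the authors' deposited table, with a log2 fold change of 1.08, an implied error of 0.33 and q = 0.00162. Its locus also holds the microRNA entry Mir692-2a. Grik2, another low-affinity subunit (chromosome 10, 49099463 to 49788754), was 2.09-fold lower by the authors' deposited table, with a log2 fold change of -1.06, an implied error of 0.37 and q = 0.00418. Grik4, a high-affinity subunit that forms channels only together with low-affinity ones (chromosome 9, 42520412 to 42944371), was 2.43-fold lower by the authors' deposited table, with a log2 fold change of -1.28, an implied error of 0.49 and q = 0.00918. All 3 stayed called with the GC trend removed, Grik3 at 1.01, Grik2 at -0.82 and Grik4 at -1.31. Grik1 and Grik5 were not called, with log2 fold changes of -0.60 and 0.31 in the authors' deposited table (q = 0.347 and 0.477). Grik5, the other high-affinity subunit, went to -0.03 with the GC trend removed.

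Grid1, a delta receptor that binds the synaptic organiser cerebellin, was at -0.49 in the authors' deposited table and was not called (q = 0.201, unadjusted p = 0.0324). The microRNA entry Mir346 shares the Grid1 locus.

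No NMDA or metabotropic glutamate receptor gene was called at a Cuffdiff q under 0.05. Of 7 NMDA genes 3 were tested, with 0 at an unadjusted p under 0.05. Grin1, the obligatory subunit, was at 0.43 in the authors' deposited table (q = 0.53), but its locus is shared with the antisense entry Grin1os and with Lrrc26. The use of strand is not given in the sources used here, so whether reads of Grin1 and Grin1os were told apart is unknown. Grin2b, the subunit that dominates in the embryonic brain, was at 0.49 and Grin3a, a subunit that lowers calcium permeability, at -0.28 in the authors' deposited table (q = 0.447 and 0.526). The Grin3a locus also holds the entry Ppp3r2. Of 8 metabotropic genes 2 were tested, with 1 at an unadjusted p under 0.05. Grm3, a receptor that lowers cyclic AMP and is common in astrocytes, was at -0.50 (q = 0.16, unadjusted p = 0.0215) in the authors' deposited table. Grm5, the receptor that raises intracellular calcium in progenitors and young astrocytes, was at -0.05 in the authors' deposited table (q = 0.938).

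**Figure D3:**
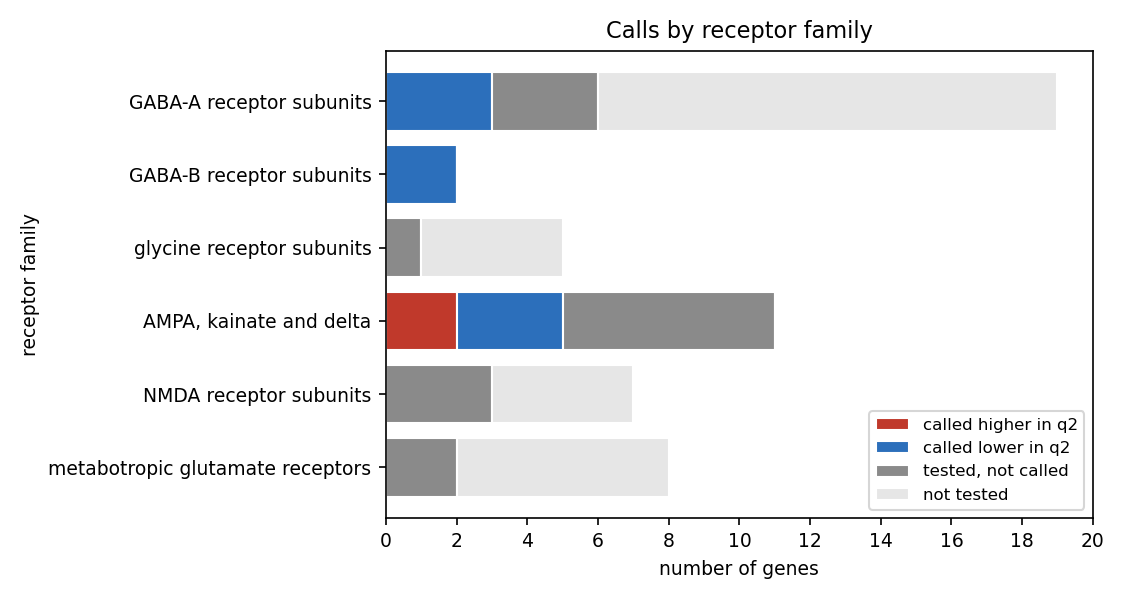
Number of genes (x axis) in 6 groups of receptor families (y axis, with the AMPA, kainate and delta genes together), split into called higher in q2, called lower in q2, tested but not called, and not tested. Red, for Gria1 and Grik3, appears in the AMPA, kainate and delta group, and 13 of 19 GABA-A genes were not tested.

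The 27 untested genes made up 51.9% of the receptor genes, against 42.9% untested of all entries. For 9 of them the deposited log2 fold change was exactly 0, among them Gabra6, Gabrd, Gabrp, Gabrr3, Glra1, Glra3 and Grm6. As no value per condition was used, such a 0 cannot be told from an entry without signal in either condition. The authors' deposited table listed Glra2 and Grm2 at 0 in q1, and Glra4, Grm7 and Grm8 at 0 in q2. The other 13 had finite values, 7 below 0 and 6 above. The NMDA subunit Grin2a stood highest at 1.53, and Gabra5 and the rho subunit Gabrr1, first known from the retina, lowest at -1.59 and -1.55 in the authors' deposited table. Gabrb2 was at -1.29, Gabra3 at -1.04, Gabrr2 at -0.94 and Grin3b, whose entry spans a merged locus of many genes, at -0.58 in the authors' deposited table. Gabre was at 0.92, Grm4 at 0.63 and Grin2d at 0.16, with Grin2c and Gabrq at 0.00, in the authors' deposited table. These values carry no test.

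Genes that assemble, anchor or supply these receptors were followed in 6 lists, of which 81 of 105 genes were tested, 7 called higher and 7 lower, or 17.3% of those tested, beside 7.63% of all tested entries (4.24% higher, 3.39% lower). The lists are small, and 1 call in 16 genes lies below that share. With normal p-values Cacng5, Dlgap1 and Slitrk3 kept their calls, beside 2.98% of all entries, and the other 11 lost them. The 81 genes had a median log2 fold change of -0.08. Auxiliary proteins of AMPA and kainate receptors were called 4 higher and none lower of 15 tested, with a median of 0.25. The transmembrane regulator Cacng5 was 2.35-fold higher in q2 by the authors' deposited table, with a log2 fold change of 1.23 and q = 0.00162. Gsg1l was at 1.56, the cornichon gene Cnih2 at 0.82 and Frrs1l, which acts in AMPA receptor assembly, at 0.73 in the authors' deposited table (q = 0.0281, 0.0214 and 0.0219). With the GC trend removed 2 stayed called, Cacng5 and Frrs1l, and with p-values from a normal distribution 1 did, Cacng5. The kainate auxiliary genes Neto1 and Neto2 stood at -0.11 and -0.18 in the authors' deposited table and were not called (q = 0.863 and 0.716).

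Among glutamate receptor scaffolds 1 of 18 was called higher and 2 lower, with a median of -0.05. Dlgap1, a scaffold of the postsynaptic density, was 2.50-fold lower in q2 by the authors' deposited table, with a log2 fold change of -1.32 and q = 0.00162, and Dlg3 was at -0.77 (q = 0.0453) and Dlgap3 at 0.82 (q = 0.0063). With the GC trend removed only Dlgap1 of these kept its call, at -1.34. Of 16 tested scaffolds and auxiliary proteins of GABA and glycine receptors, 1 was called lower and none higher, with a median of -0.17. This was Slitrk3, an adhesion protein of inhibitory synapses, at -1.51 in the authors' deposited table (q = 0.00162). Gphn, which encodes gephyrin, the main anchor of GABA-A and glycine receptors, was at -0.06 in the authors' deposited table (q = 0.929; chosen after its value was seen). Removal of the GC trend left 1 higher and 2 lower calls in this list, as the GABA-B auxiliary gene Kctd12 at 0.94 and Shisa7 at -1.01 gained calls.

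GABA synthesis, breakdown and transport had 1 of 5 tested genes called, Abat, the GABA-degrading transaminase, at -0.71 in the authors' deposited table (q = 0.0225), a call that ended with the GC trend removed. In the supply of glutamate, glycine and D-serine 1 of 19 genes was called higher and 3 lower. The glial glutamate transporter Slc1a2 was at -1.17, the glycine transporter Slc6a9 at -0.94 and the cystine-glutamate exchanger Slc7a11 at -0.96 in the authors' deposited table (q = 0.00162, 0.00162 and 0.011). The serine hydroxymethyltransferase gene Shmt1 was at 0.82 in the authors' deposited table (q = 0.018). Slc7a11 lost its call with the GC trend removed. Chloride transporters, which set whether GABA excites or inhibits a cell, and their kinases were called 1 higher of 8, Slc12a7 at 1.51 in the authors' deposited table (q = 0.00719). Slc12a2, the importer that keeps chloride high in immature cells, was at 0.52 in the authors' deposited table (q = 0.137). It was called at 0.82 with the GC trend removed. The exporter Slc12a5 was not tested and stood at 1.09 in the authors' deposited table, also higher in q2.

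**Figure D4:**
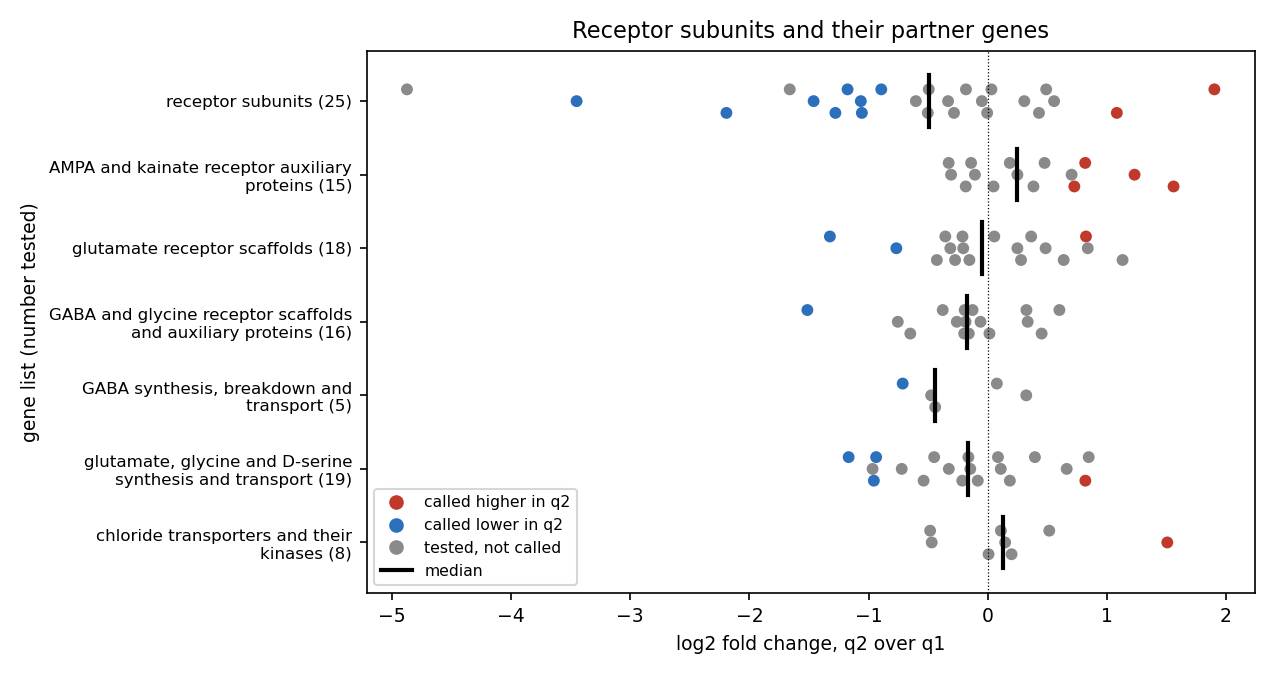
The x axis gives the log2 fold change (q2 over q1) from the authors' deposited table, and the y axis the tested receptor subunit genes and 6 lists of partner genes with the number tested. Each gene is a point coloured by its call, and black bars are medians, -0.49 for the receptor subunits and 0.25 for the AMPA and kainate auxiliary proteins.

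Markers of 8 cell types were read beside the receptors. Over all tested entries 7.63% were called, 6.24% with the GC trend removed and 2.98% with normal p-values. Of 8 astrocyte markers 7 were called lower and none higher, with a median of -1.02, and the lowest were Aqp4 at -2.70, Ndrg2 at -2.42 and Gfap at -2.06 in the authors' deposited table (q = 0.00162 for each). Slc1a2, which the glutamate supply list also holds, Gja1, Aldh1l1 and Aldoc were the other called astrocyte markers. All 7 stayed called with the GC trend removed. Oligodendrocyte precursor markers were called 2 lower and 1 higher of 6, Pdgfra at -2.83, Gpr17 at -1.42 and Nkx2-2 at 1.25 in the authors' deposited table (q = 0.00162, 0.00162 and 0.0262). Removal of the GC trend ended the call of Nkx2-2 and added one for Olig2, lower at -0.79. Neuron markers were called 1 higher and 1 lower of 7, Syt1 at 1.48 and Elavl3 at -1.26 in the authors' deposited table (q = 0.00162 and 0.00418), and Dcx, Stmn2 and Rbfox3 were not tested. The GABAergic and ventral progenitor list had 3 of 11 genes tested. The authors' deposited table called Gsx1 lower, at -1.63 (q = 0.00418), and left Gad1, which makes GABA, uncalled at 0.08. Of the stem cell and radial glia markers 9 of 10 were tested. Nes was called higher at 0.75, and Fabp7 at -1.13 and Hes5 at -0.82 lower, in the authors' deposited table (q = 0.0157, 0.00162 and 0.0188). The call of Nes ended with the GC trend removed. Fibroblast and mesenchymal markers had 3 of 7 tested. Of these 2 were called higher, Fn1 at 1.78 and Acta2 at 0.95 in the authors' deposited table (q = 0.00162 for both). Col1a1 was at 0.43 in the authors' deposited table and was not called (q = 0.604). Col1a2, Col3a1, Dcn and Lum were not tested. The authors' deposited table listed Col3a1 at 2.28, Dcn and Lum at exactly 0, and Col1a2 at 0 in q2. At a Cuffdiff q under 0.05, 0 of 2 tested microglia markers and 0 of 1 tested endothelial and mural marker were called. At an unadjusted Cuffdiff p under 0.05 there were also 0. Cd68 was at 0.98, P2ry12 at 1.37 and Kdr at 0.71 in the authors' deposited table. With normal p-values the called markers were Aqp4, Ndrg2, Gfap, Pdgfra, Gpr17 and Fabp7 lower and Syt1 and Fn1 higher. The other called markers lost their calls, Gsx1, Elavl3, Hes5, Nes, Nkx2-2 and Acta2 among them. Of the 7 called astrocyte markers 3 kept their calls in that setting, and Slc1a2, Gja1, Aldh1l1 and Aldoc lost theirs. The part of these cell types in the receptor values was not tested.

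The receptor genes have transcripts of lower GC content and greater length than most tested entries, with medians of 47.3% against 50.7% and 5720 against 3432 bases. With the trend in GC content removed, 3 receptor genes were called higher and 7 lower beside 3.39% and 2.85% of all entries (6.24% in either direction), and the median log2 fold change went from -0.49 to -0.40. Of the 10 calls from the deposited q-values 9 remained. With the trend in length removed, the counts were 2 and 8 beside 4.52% and 3.21% of all entries (7.72%), and the median was -0.44. A q under 0.01 called 2 higher and 7 lower beside 2.44% and 1.91% of all entries (4.36%), without Gabbr2. A minimum absolute log2 fold change of 1 also called 2 and 7, without Gabrg1, beside 2.73% and 1.76% (4.49%). Entries with a locus of their own gave 1 and 8 beside 4.53% and 3.74% (8.27%), since Grik3 shares its locus.

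**Figure D5:**
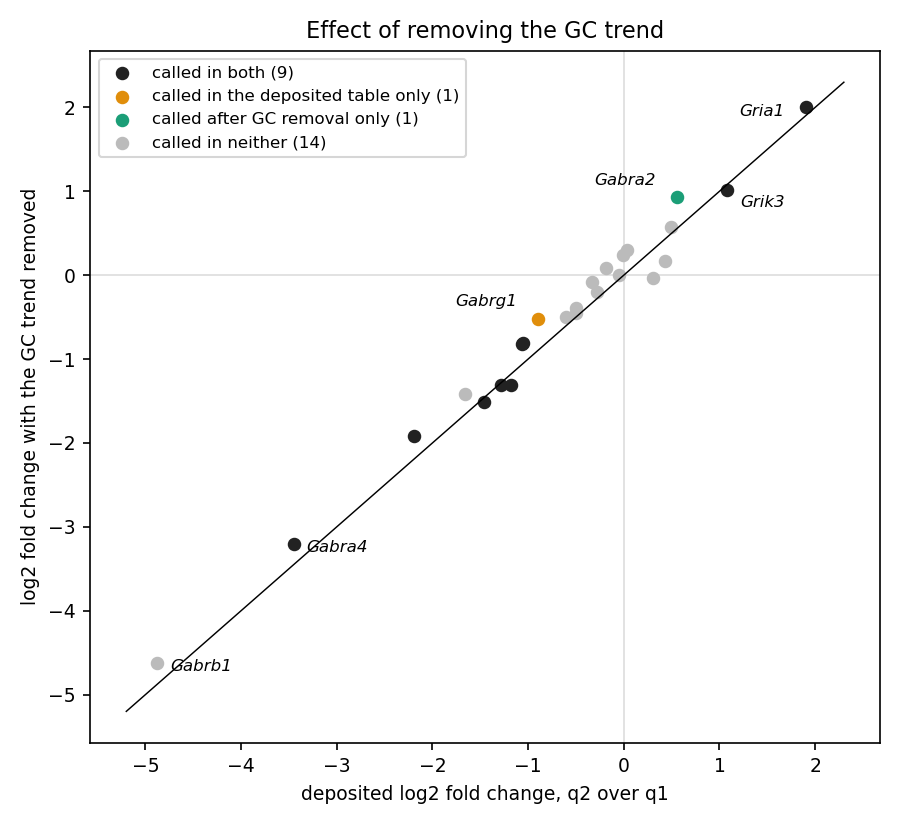
The y axis gives the log2 fold change with the GC trend removed, and the x axis the value in the authors' deposited table, for the 25 tested receptor subunit genes, coloured by whether they were called, with the line of equal values. The 9 genes called both ways include Gria1, Gabra4 and Grik3; Gabrg1 lost and Gabra2 gained a call.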

How the data were processed

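RNA was measured in 4 libraries, 2 per hairpin, grouped by sample title. Poly(A) RNA went into the SOLiD Total RNA-Seq kit, as stated in the labels' protocols. Per the submitters' processing notes, the reads went through TopHat2 2.0.9, Cufflinks 2.2.1 and Cuffdiff on build mm10 (GRCm38). Annotation, filters, strand use and the Cuffdiff version: not given in the sources used here. The authors deposited 1 table with, per the file headers, a log2 fold change of q2 over q1, a test statistic (a score), p-values and q-values for each entry. Benjamini-Hochberg adjustment of the deposited p-values gave back all 15315 q-values (relative tolerance 0.001). The lowest p, 5e-05, was shared by 472 entries, all at the lowest q of 0.00162. 2 columns of per-condition values match no labelled group and were not used.

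Receptor genes were taken by symbol and split into 8 families. An entry was called where the authors' q was under 0.05, the threshold used here. Locus starts were converted to count from 1. The implied error is the absolute log2 fold change divided by the statistic. The named genes are Foxp1, every receptor gene (some are not reported here), and of each of 6 partner and 8 marker lists the called genes, up to 6, or the 2 with the largest statistic. Outside that rule, Aldoc, Gphn, Neto1, Neto2, Gad1, Kctd12, Shisa7, Olig2, Slc12a2 and Slc12a5 were named after their values were seen. So were Col1a1, Col1a2, Col3a1, Dcn and Lum. The members and lists were chosen with earlier results of these data known. Transcript GC content and length were matched by symbol to GENCODE M21 (GRCm38) for 11817 of 15315 tested entries and all 25 tested receptor genes. Medians in 50 bins were subtracted, the statistic was rescaled with the same implied error, and a new p was taken from the p-statistic relation of the table. These steps were run on simulated data in which p was a fixed function of the statistic. In the deposited table it is not, as the values of Gabrb1 and Gabrg3 show. That run therefore cannot speak for the new p-values. Entries without a match were left unshifted. The p-statistic relation with no shift was an alternative added after seeing the data. The others were thresholds, a minimum fold change, normal p-values, another adjustment family, centring, and 2 restrictions of the entries. Software: Python 3.11.15, matplotlib 3.10.9, scikit-learn 1.9.0, scipy 1.17.1, pandas 2.3.3 and numpy 2.4.6.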

Additional observations from a re-analysis of the deposited data

How the results depend on the processing

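No paired analysis was possible because the deposited comparison holds no values per library, and for the same reason no library could be left out and the spread between replicates and the depth behind a call are unknown. Of the 10 called receptor genes, Gabra4, Gabbr1, Gria1 and Grik3 were among those that stayed called under each alternative in which they were present. The alternatives include a q under 0.1, which could end no call. Gabbr2 lost its call at a q under 0.01, and Gabrg1 with a minimum absolute log2 fold change of 1 and with the GC trend removed. With normal p-values the receptor genes called lower went from 8 to 3, and the partner genes called went from 7 higher and 7 lower to 1 and 2 of 81, near the 2.98% of all entries called in that setting. The partner counts were 3 and 4 at a q under 0.01 (4.36% of all entries), and 3 and 3 with the minimum fold change (4.49%). Among entries with a locus of their own, which leaves out Grik3, Grid1, Grin1 and Grin3a, 1 receptor gene was called higher and the median was -0.60. The median was -0.40 with the GC trend and -0.44 with the length trend removed. Among uncalled genes, signs turned for Gria4 (0.043 centred, 0.24 with the GC and 0.047 with the length trend removed) and, with the GC trend removed, for Glrb (0.088) and Grik5 (-0.031); the cause was not tested.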

Other observations

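Receptors of other transmitters were looked up after the receptor values had been seen. Of 85 genes for acetylcholine, purine, monoamine, cannabinoid, opioid, tachykinin and neuropeptide Y receptors, 22 were tested, 3 called higher and 2 lower in q2 (4.24% and 3.39% of all tested entries), with a median log2 fold change of -0.06. The cannabinoid receptor gene Cnr1 was 4.08-fold higher and the serotonin-gated channel gene Htr3a 4.17-fold higher by the authors' deposited table (Cuffdiff, q = 0.00162 and 0.00719). The muscarinic receptor gene Chrm3 was 2.34-fold higher by the authors' deposited table (q = 0.00162). Adra2a, an adrenergic receptor gene, was 3.68-fold lower and the adenosine receptor gene Adora2b 2.40-fold lower in the authors' deposited table (q = 0.00162 for both). With normal p-values Htr3a and Adora2b lost their calls.

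Neighbours of the GABA-A clusters were also named after their values were seen. Within 1 Mb of the chromosome 5 cluster 1 of 5 tested neighbours was called, the phospholipid flippase gene Atp10d, at 1.09 in the authors' deposited table (q = 0.00162). Within 1 Mb of the chromosome 7 cluster 1 of 7 was called, its paralogue Atp10a, at 1.75 in the authors' deposited table (q = 0.00162). Both were higher in q2, and both stayed called with the GC trend removed, at 1.25 and 1.49. With normal p-values Atp10d lost its call. The third paralogue, Atp10b beside the chromosome 11 cluster, was at 0.47 in the authors' deposited table and was not called (q = 0.497). Within 1 Mb of the chromosome X cluster 2 of 22 tested neighbours were called, both higher, Prrg3 at 4.28 and the plexin gene Plxnb3 at 1.17 in the authors' deposited table. Over all tested entries 7.63% were called, 4.24% higher and 3.39% lower. Whether these windows differ from that share was not tested.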
